A study of Sus scrofa with 6 samples.

Results

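Polycomb group proteins form the complexes PRC1 and PRC2 and the deubiquitinase PR-DUB, and the genes of their subunits were followed here in 2 kinds of pig cells. The members were chosen by symbol from a list of 37 subunit genes, and 28 of the 37 were found among the 20131 genes of the table. RBBP4, RBBP7, PCGF1, PCGF5, CBX7, SCML2, BCOR, BCORL1 and KDM2B were not found by symbol and were not analysed here. The cells were 4 libraries of pgEpiSC, pluripotent stem cells of the pre-gastrulation epiblast of embryos at embryonic day 10, and 2 libraries of pEF, fibroblasts of fetuses at embryonic day 30. Both groups were Sus scrofa cells with no treatment or genetic change given in the labels. Their RNA was depleted of ribosomal RNA and sequenced by strand, and the series calls the libraries biological replicates. How many lines, embryos or fetuses stand behind them is not given in the sources used here.

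PRC2 methylates lysine 27 of histone H3 through EZH1 or EZH2, which need the partners EED and SUZ12. PRC1 ubiquitinates histone H2A through RING1 or RNF2 paired with 1 of several PCGF proteins. Canonical PRC1 carries a CBX protein that reads the PRC2 mark and a PHC protein that can polymerize, whereas variant PRC1 carries RYBP or YAF2. In mammalian pluripotent cells both complexes are known to sit on silent genes of later development. Most of these positions can be filled by more than 1 gene, so the paralogs that share a position are set side by side below.

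Expression was deposited as TPM, a unit per transcript length, so levels of different genes can be compared. Over all genes in the table the sum ranged from 157288 to 320206 TPM in pgEpiSC, against 93556 and 145611 TPM in pEF. Median-ratio factors, a measure of how far all genes of a library are shifted, were 0.697, 2.15, 1.61 and 0.722 for pgEpiSC libraries 1 to 4, against 0.569 and 0.944 for the pEF libraries. Within pgEpiSC, libraries 1 and 4 were the most alike (Pearson r = 0.989 across genes on scaled log2 values) and the other pairs lay between 0.945 and 0.966. Tested genes had a median log2 fold of 0.48 with the deposited values and 0.02 once these were divided by the factors, so each member is described under both scalings and by its share within its position, which no single factor per library can change. The 7 epiblast markers found summed to between 421 and 1819 TPM in pgEpiSC and to 0.118 and 0.660 TPM in pEF, where LIN28A and PRDM14 were listed at 0. How much of each gene model a row covers is not given in the sources used here, which bears on any level compared between genes. The 8 fibroblast markers found summed to between 2.26 and 6.98 TPM in pgEpiSC and to 495 and 1332 TPM in pEF. The 5 hypoblast markers found summed to between 1.82 and 4.00 TPM in pgEpiSC and to 17.9 and 15.8 TPM in pEF. Among them FOXA2, a forkhead factor of endoderm, was called higher in pgEpiSC (adjusted p = 0.00286 by limma). It stood at 2.37, 3.30, 3.73 and 1.47 TPM there, against 0.00687 and 0.00357 TPM in pEF. FOXA2 passed the filter of 1 TPM in at least 2 libraries through pgEpiSC alone, so the filter favoured this direction. Its call as deposited was lost with either pEF library left out. PDGFRA, also a receptor of mesenchyme, was called lower and passed through pEF alone. Most of the pEF sum was PDGFRA (17.7 and 15.4 TPM). HNF4A and GATA6 reached 0.0633 and 0.392 TPM at most, and AFP was listed at 0 in pEF. The 6 trophectoderm markers summed to between 0.532 and 3.91 TPM in pgEpiSC and to 18.9 and 7.13 TPM in pEF. Most of the pEF sum was PTGS2 alone (18.6 and 6.70 TPM), and the other markers of this list reached 0.374 TPM at most there. In pgEpiSC the highest was TFAP2C, between 0.309 and 3.34 TPM. No endothelial or blood marker reached 1 TPM in any library. The part of such cells in the results was not tested. In bulk samples, fewer cells of a type and less RNA per cell cannot be told apart.

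The leading paralog differed between pgEpiSC and pEF at the PCGF, CBX, PHC and RYBP positions. Called higher in pgEpiSC were JARID2, MTF2, RNF2, PCGF6, CBX2 and PHC1, and called lower were PHC2, BMI1 and YAF2. Thus 6 of the 26 tested members were higher (23.1%; 18.0% of all 10424 tested genes were) and 3 were lower (11.5%; 9.43% of all genes were), by limma on log2(TPM + 1) at a Benjamini-Hochberg adjusted p below 0.05. After median-ratio scaling all 9 kept their direction and call and 10 more were called, which made 9 higher (34.6%, against 27.0% of all genes) and 10 lower (38.5%, against 30.9% of all genes), 73.1% in all, against 57.9% of all genes. The median log2 fold of the members was 0.07 below that of all genes as deposited and 0.02 above it after scaling. For 14 of the 26 the 2 groups of libraries stood fully apart as deposited (53.8%, against 49.5% of all tested genes), and for 20 after scaling (76.9%, against 70.5%). PHF1 and CBX8 stayed below the filter of 1 TPM in at least 2 libraries. PCGF6, CBX2, PHC1 and ASXL1 reached 1 TPM in pgEpiSC alone and BMI1 in pEF alone, so the filter favoured the direction of these 5.

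**Figure D1:**
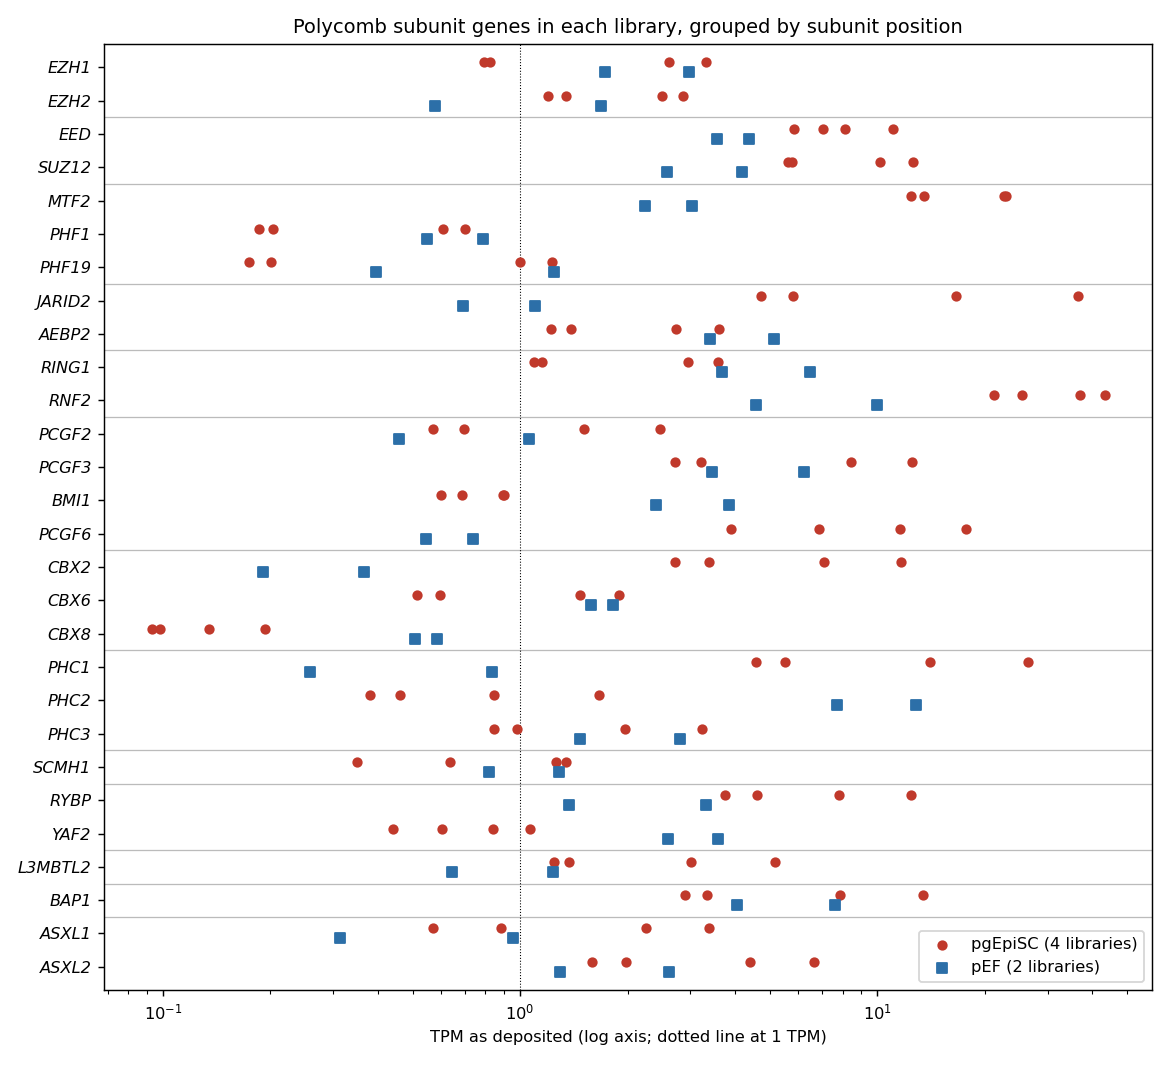
TPM as deposited of the 28 members in each library, on a log axis; circles are the 4 pgEpiSC libraries, squares the 2 pEF libraries, and grey lines part the subunit positions. PHC1, CBX2 and PCGF6 lie wholly to the right in pgEpiSC, PHC2, YAF2 and BMI1 wholly to the right in pEF, while EZH1 and EZH2 overlap.

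The most abundant member in pgEpiSC was RNF2 at a mean of 31.7 TPM, followed by MTF2 (17.9), JARID2 (15.9), PHC1 (12.7) and PCGF6 (10.02). In pEF the order was led by PHC2 at 10.3 TPM, with RNF2 (7.30), BAP1 (5.83), RING1 (5.09) and PCGF3 (4.84) next. The ranges of neighbours among the 5 overlapped across libraries in both groups. Within each pEF library, however, the 5 kept the order of their means. Within pgEpiSC, RNF2 was the highest in every library. JARID2 stood above MTF2 in library 2, and PCGF6 stood above PHC1 and JARID2 in library 4. A mean of at least 1 TPM was reached by 21 of the 28 members in pgEpiSC and by 18 in pEF.

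The catalytic subunits of PRC2 had low TPM in both cell types, and neither was called as deposited; whether the EZH2 row covers the whole gene was not tested. EZH2 (ENSSSCG00000028840), the methyltransferase most used by dividing cells, stood at 1.20, 2.85, 2.50 and 1.34 TPM in pgEpiSC libraries 1 to 4, against 0.577 and 1.69 TPM in pEF libraries 1 and 2. The second pEF library thus lay inside the pgEpiSC range, and the log2 fold was 0.49 ± 0.50 (SE, adjusted p = 0.486), or 0.14 ± 0.17 after scaling (adjusted p = 0.501). EZH1 (ENSSSCG00000017382), the paralog known for weaker methyltransferase activity and for expression in resting cells, stood at 0.794, 3.31, 2.61 and 0.821 TPM in pgEpiSC, against 1.73 and 2.96 TPM in pEF. As deposited the groups overlapped (-0.30 ± 0.53, adjusted p = 0.706), while scaled values of EZH1 parted them and were called lower (-0.80 ± 0.15, adjusted p = 0.00208). EZH2 made up 60.2, 46.3, 49.0 and 62.1% of the summed TPM of the pair in pgEpiSC, against 25 and 36.3% in pEF. Every pgEpiSC library exceeded both pEF libraries, and the mean share was 54.4 ± 7.89% in pgEpiSC (SD, n = 4) and 30.6 ± 7.94% in pEF (SD, n = 2). An exact two-sided permutation test gave p = 0.0667, the smallest that the 15 splits of 4 against 2 allow. The same holds for every share below that does not overlap, and each of those has a Benjamini-Hochberg p of 0.080 over the 18 shares tested.

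The other core subunits, EED and SUZ12, were present in both groups at several TPM and were not called as deposited. EED (ENSSSCG00000014915), which binds methylated H3 and stimulates the enzyme, stood at 5.85, 11.1, 8.12 and 7.07 TPM in pgEpiSC, against 3.56 and 4.38 TPM in pEF. The groups did not overlap, but the fold of 0.84 ± 0.54 was not called (adjusted p = 0.252), and scaled values overlapped (0.29 ± 0.29, adjusted p = 0.401). SUZ12 (ENSSSCG00000017744), the scaffold on which accessory subunits dock, stood at 5.61, 12.6, 10.2 and 5.75 TPM in pgEpiSC, against 2.57 and 4.17 TPM in pEF. All pgEpiSC libraries were above both pEF libraries for SUZ12, with a fold of 1.08 ± 0.55 (adjusted p = 0.140); after scaling it was called higher (0.55 ± 0.19, adjusted p = 0.0370). That call was lost without pgEpiSC replicate 1 or 4 or with either pEF library left out. A ratio chosen after these values were seen, summed EZH1 and EZH2 TPM over SUZ12 TPM, was 0.355, 0.488, 0.504 and 0.376 in pgEpiSC libraries, against 0.897 and 1.12 in pEF libraries. The ratio was thus lower in each pgEpiSC library than in either pEF library, on the rows as listed, whose coverage of the EZH2 gene was not tested. For EZH2 alone over SUZ12 the ratios overlapped, at 0.214 to 0.247 in pgEpiSC, against 0.224 and 0.404 in pEF.

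The accessory subunits of PRC2, which help it to reach its sites, held both PRC2 members called as deposited, MTF2 and JARID2. Polycomb-like proteins define the form PRC2.1 and bind CpG-rich DNA. MTF2 (ENSSSCG00000006898), the Polycomb-like protein known to lead in mouse embryonic stem cells, stood at 12.4, 23.0, 22.7 and 13.5 TPM in pgEpiSC, against 2.23 and 3.03 TPM in pEF. Every pgEpiSC library was several times above both pEF libraries; MTF2 rose by 2.34 ± 0.53 log2 units (adjusted p = 0.000829; 1.81 ± 0.26 after scaling). Its call as deposited was lost without pEF replicate 1 (2.18, adjusted p = 0.0613). The paralogs PHF1 (ENSSSCG00000001511) and PHF19 (ENSSSCG00000005510) stayed between 0.174 and 1.23 TPM in pgEpiSC and between 0.396 and 1.24 TPM in pEF. PHF19 was not called (-0.16 ± 0.37, adjusted p = 0.779). MTF2 held 95.0 ± 2.55% of the summed TPM of the 3 genes in pgEpiSC and 65.1 ± 7.28% in pEF, and led in both.

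PRC2.2 carries JARID2 and AEBP2, which are not paralogs and can sit in 1 complex. JARID2 (ENSSSCG00000001061), a Jumonji-family protein with no known demethylase activity, stood at 5.80, 36.4, 16.6 and 4.72 TPM in pgEpiSC, against 0.693 and 1.1 TPM in pEF. Within pgEpiSC its level was highest in library 2, and all 4 libraries lay above both pEF libraries (2.75 ± 0.61 log2 units, adjusted p = 0.000660; 2.32 ± 0.32 after scaling). With either pEF library left out the call as deposited was lost (2.59, adjusted p = 0.129, without replicate 1 and 2.90, adjusted p = 0.0722, without replicate 2). AEBP2 (ENSSSCG00000000587), a zinc finger protein, stood at 1.22, 3.60, 2.74 and 1.39 TPM in pgEpiSC, against 3.41 and 5.15 TPM in pEF. Those ranges overlapped (-0.75 ± 0.56, adjusted p = 0.322); the scaled values did not, and AEBP2 was called lower there (-1.28 ± 0.14, adjusted p = 0.000117). JARID2 thus held 84.2 ± 5.75% of their summed TPM in pgEpiSC and 17.2 ± 0.502% in pEF.

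The RING ligases showed a rise of RNF2 over its paralog. RNF2 (ENSSSCG00000015568), also known as RING1B and the main H2A ligase of mouse embryonic stem cells, stood at 21.2, 43.4, 36.8 and 25.4 TPM in pgEpiSC, against 4.58 and 10.01 TPM in pEF. Both pEF libraries lay below every pgEpiSC library, and RNF2 rose by 2.01 ± 0.51 log2 units (adjusted p = 0.00292; 1.43 ± 0.29 after scaling, adjusted p = 0.00327). Without pEF replicate 1 the call was lost under both scalings (1.52, adjusted p = 0.168, and 1.19, adjusted p = 0.0517). RING1 (ENSSSCG00000001477), the other ligase, stood at 1.15, 3.58, 2.96 and 1.09 TPM in pgEpiSC, against 3.67 and 6.50 TPM in pEF. The gap between the groups was narrow as deposited (-0.98 ± 0.56, adjusted p = 0.195) and wide after scaling, where RING1 was called lower (-1.52 ± 0.14, adjusted p = 4.94e-05). RNF2 made up 93.9 ± 1.72% of the pair in pgEpiSC and 58.1 ± 3.65% in pEF, so it led in both.

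Among PCGF proteins, which decide the kind of PRC1, the leading gene differed between the cells. PCGF6 (ENSSSCG00000020954), the subunit of the variant complex PRC1.6, stood at 3.90, 17.7, 11.6 and 6.88 TPM in pgEpiSC, against 0.546 and 0.739 TPM in pEF. As PCGF6 reached 1 TPM in pgEpiSC alone, the filter favoured this direction. Even the lowest pgEpiSC library was well above both pEF libraries (2.57 ± 0.58 log2 units, adjusted p = 0.000758; 2.19 ± 0.21 after scaling). Its call as deposited was lost with either pEF library left out (adjusted p = 0.0935 and 0.0593). BMI1 (ENSSSCG00000011081), also known as PCGF4, is a subunit of canonical PRC1 known for repressing the CDKN2A locus. It stood at 0.687, 0.901, 0.602 and 0.898 TPM in pgEpiSC, against 2.41 and 3.86 TPM in pEF. Here the filter favoured a fall, since BMI1 reached 1 TPM in pEF alone. BMI1 fell by 1.20 on the log2 scale (SE 0.46, adjusted p = 0.0464), close to the threshold, and this call was lost without pgEpiSC replicate 1, 3 or 4 or without either pEF library. The scaled fold of BMI1 was larger and better set off from its error (-1.59 ± 0.22, adjusted p = 0.000490), and it was called there with any single library left out.

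PCGF3 (ENSSSCG00000029983), of a variant complex, and PCGF2 (ENSSSCG00000039198), the closest paralog of BMI1, were not called. PCGF3 ranged from 2.71 to 12.6 TPM in pgEpiSC and stood at 3.45 and 6.24 TPM in pEF, and PCGF2 ranged from 0.570 to 2.46 TPM in pgEpiSC and stood at 0.458 and 1.06 TPM in pEF. The sign of both folds turned with the scaling: for PCGF3 it was 0.24 as deposited against -0.34 with median-ratio scaling, and that of PCGF2 was 0.34 as deposited and -0.12 after rescaling each library to 1000000. Of the summed TPM of the 4 PCGF genes found, PCGF6 held 53.3 ± 4.50% in pgEpiSC and 7.09 ± 1.23% in pEF. BMI1 held 5.44 ± 3.18% in pgEpiSC and 33.7 ± 1.87% in pEF, and PCGF3 held 34.3 ± 4.72% and 51.4 ± 1.53%. Within pgEpiSC the share of BMI1 was 8.59 and 7.77% in libraries 1 and 4 and 2.68 and 2.72% in libraries 2 and 3. The share of PCGF2 overlapped (6.95 ± 1.56% in pgEpiSC and 7.78 ± 1.57% in pEF, with p = 0.533 by exact permutation).

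**Figure D2:**
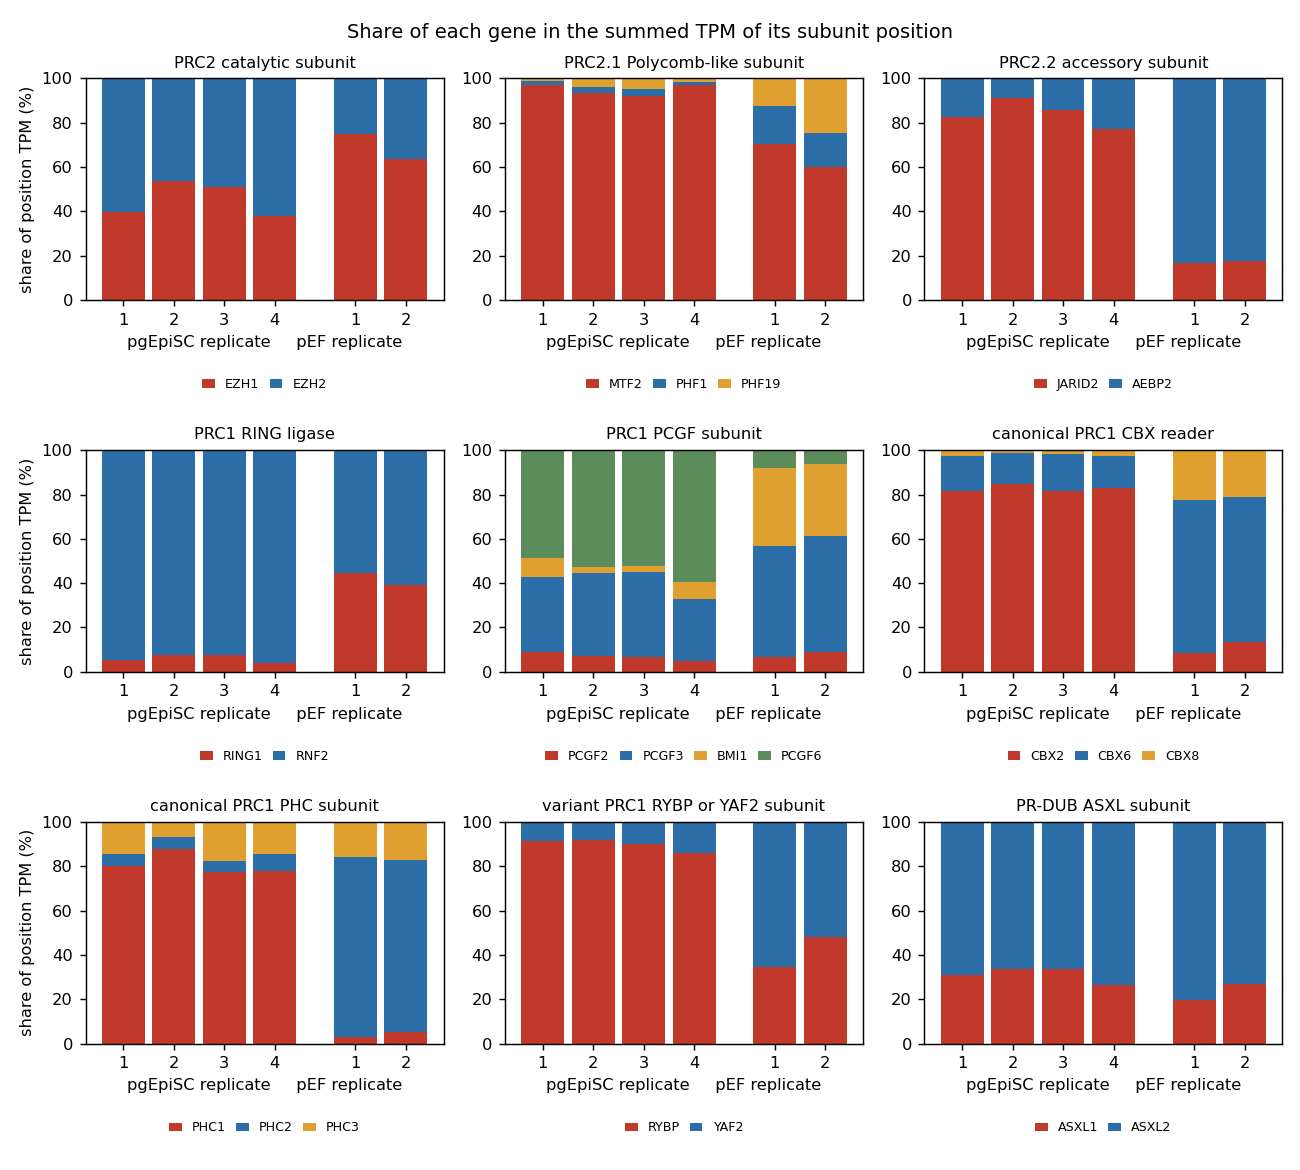
Stacked bars give, for each library, the percentage that each gene holds of the summed TPM of the genes found for its position; 4 pgEpiSC libraries stand left of 2 pEF libraries. PHC1, CBX2, JARID2 and PCGF6 fill most of their bars in pgEpiSC (80.9, 82.7, 84.2 and 53.3% on average) and little in pEF (3.90, 10.8, 17.2 and 7.09%), while the ASXL bars differ little.

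The CBX readers of canonical PRC1 also changed leader. CBX2 (ENSSSCG00000024261), a CBX protein that compacts nucleosomes, stood at 2.71, 11.6, 7.11 and 3.37 TPM in pgEpiSC, against 0.191 and 0.366 TPM in pEF. The filter favoured a rise, since CBX2 reached 1 TPM in pgEpiSC alone. No pEF library came near the pgEpiSC range, and CBX2 rose by 2.33 ± 0.58 log2 units (adjusted p = 0.00209; 2.03 ± 0.15 after scaling); with 1 pEF library left out the call as deposited was lost (adjusted p = 0.158 and 0.103). CBX6 (ENSSSCG00000040334), another reader, stood at 0.516, 1.90, 1.47 and 0.596 TPM in pgEpiSC, against 1.58 and 1.82 TPM in pEF. It overlapped as deposited (-0.40 ± 0.46, adjusted p = 0.539) and was called lower after scaling (-0.85 ± 0.14, adjusted p = 0.00133). CBX8 (ENSSSCG00000034146) was the lowest member in pgEpiSC at 0.0931, 0.194, 0.134 and 0.0979 TPM, against 0.507 and 0.586 TPM in pEF, and was not tested. CBX2 held 82.7 ± 1.49% of the 3 genes in pgEpiSC and 10.8 ± 3.42% in pEF, where CBX6 held 67.5 ± 2.62%. CBX7 was not analysed here, so these are shares of the genes found.

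The PHC subunits, whose SAM domains join PRC1 complexes into chains, exchanged their leading gene. PHC1 (ENSSSCG00000000661) stood at 5.50, 26.5, 14.1 and 4.59 TPM in pgEpiSC, against 0.258 and 0.835 TPM in pEF. PHC2 (ENSSSCG00000025344) was the reverse, at 0.380, 1.66, 0.843 and 0.462 TPM in pgEpiSC, against 7.70 and 12.9 TPM in pEF. Neither gene overlapped between the groups. Since PHC1 reached 1 TPM in pgEpiSC alone, the filter favoured a rise of this gene. PHC1 rose by 2.87 ± 0.60 log2 units (adjusted p = 0.000307; 2.54 ± 0.25 after scaling), a call lost as deposited without pEF replicate 1 (2.59, adjusted p = 0.106). PHC2 fell by 2.63 on the log2 scale (SE 0.54, adjusted p = 0.000265), and by 3.17 after scaling (SE 0.14, adjusted p = 1.54e-06). Of the 9 members called as deposited, PHC2 alone kept its call with any single library left out. PHC3 (ENSSSCG00000030467) stood at 0.981, 1.97, 3.23 and 0.844 TPM in pgEpiSC, against 1.48 and 2.80 TPM in pEF. Its groups overlapped (-0.24 ± 0.52, adjusted p = 0.766), although it was called lower after scaling (-0.69 ± 0.19, adjusted p = 0.0149), which did not hold without pEF replicate 2. PHC1 made up 80.9 ± 4.86% of the 3 genes in pgEpiSC and 3.90 ± 1.65% in pEF. PHC2 made up 5.89 ± 1.37% in pgEpiSC and 79.8 ± 2.58% in pEF, whereas the share of PHC3 overlapped (13.2 ± 4.76% and 16.3 ± 0.937%, exact permutation p = 0.533). SCMH1 (ENSSSCG00000003971), a substoichiometric canonical subunit, stood at 0.636, 1.26, 1.34 and 0.349 TPM in pgEpiSC, against 0.820 and 1.29 TPM in pEF. It was not called as deposited (-0.14 ± 0.41, adjusted p = 0.823), and its scaled call of -0.50 ± 0.14 (adjusted p = 0.0174) was lost without pEF replicate 1.

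RYBP and YAF2, which take the place of CBX proteins in variant PRC1, differed in opposite directions. RYBP (ENSSSCG00000025053) stood at 4.61, 12.5, 7.83 and 3.74 TPM in pgEpiSC, against 1.37 and 3.31 TPM in pEF. The lowest pgEpiSC library was only just above the higher pEF library, and the fold of 1.23 ± 0.57 was not called (adjusted p = 0.103); after scaling RYBP was called higher (0.75 ± 0.19, adjusted p = 0.0103), which was lost without pEF replicate 1. YAF2 (ENSSSCG00000031775) stood at 0.44, 1.07, 0.841 and 0.605 TPM in pgEpiSC, against 2.59 and 3.59 TPM in pEF. All pgEpiSC libraries were below both pEF libraries, and YAF2 fell by 1.24 on the log2 scale (SE 0.46, adjusted p = 0.0387; scaled -1.67 ± 0.14, adjusted p = 4.00e-05). Like that of BMI1, the call of YAF2 as deposited was lost without pgEpiSC replicate 1, 3 or 4 or without either pEF library, and was made after scaling with any library left out. RYBP held 89.9 ± 2.69% of the pair in pgEpiSC and 41.3 ± 9.44% in pEF, so the leading gene changed.

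L3MBTL2 (ENSSSCG00000000066), a histone-binding subunit of PRC1.6 together with PCGF6, stood at 1.37, 5.17, 3.01 and 1.24 TPM in pgEpiSC, against 0.643 and 1.24 TPM in pEF. Library 4 of pgEpiSC was barely above library 2 of pEF, and the fold was not called (0.82 ± 0.53, adjusted p = 0.251). Its scaled call (0.43 ± 0.14, adjusted p = 0.0316) was lost without pgEpiSC replicate 1 or either pEF library.

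PR-DUB, which removes the ubiquitin that PRC1 places on H2A, showed no member called as deposited. BAP1 (ENSSSCG00000011438), its enzyme, stood at 2.90, 13.5, 7.85 and 3.34 TPM in pgEpiSC, against 4.05 and 7.61 TPM in pEF. Both pEF libraries lay inside the pgEpiSC range (0.05 ± 0.58, adjusted p = 0.960), and the sign turned after scaling, where BAP1 was called lower (-0.53 ± 0.19, adjusted p = 0.0436), a call lost without pgEpiSC replicate 1, 3 or 4 or either pEF library. The activating partner ASXL1 (ENSSSCG00000007248) stood at 0.887, 3.39, 2.25 and 0.569 TPM in pgEpiSC, against 0.314 and 0.957 TPM in pEF. Its paralog ASXL2 (ENSSSCG00000008575) stood at 1.98, 6.63, 4.41 and 1.59 TPM in pgEpiSC, against 1.29 and 2.61 TPM in pEF. Both overlapped and neither was called under either scaling (0.67 ± 0.47 and 0.55 ± 0.57 as deposited, adjusted p = 0.295 and 0.493); the sign of the ASXL2 fold turned after rescaling to 1000000 (-0.05). ASXL2 led the pair in both groups, with 68.8 ± 3.49% in pgEpiSC and 76.8 ± 5.15% in pEF (p = 0.133 by exact permutation).

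**Figure D3:**
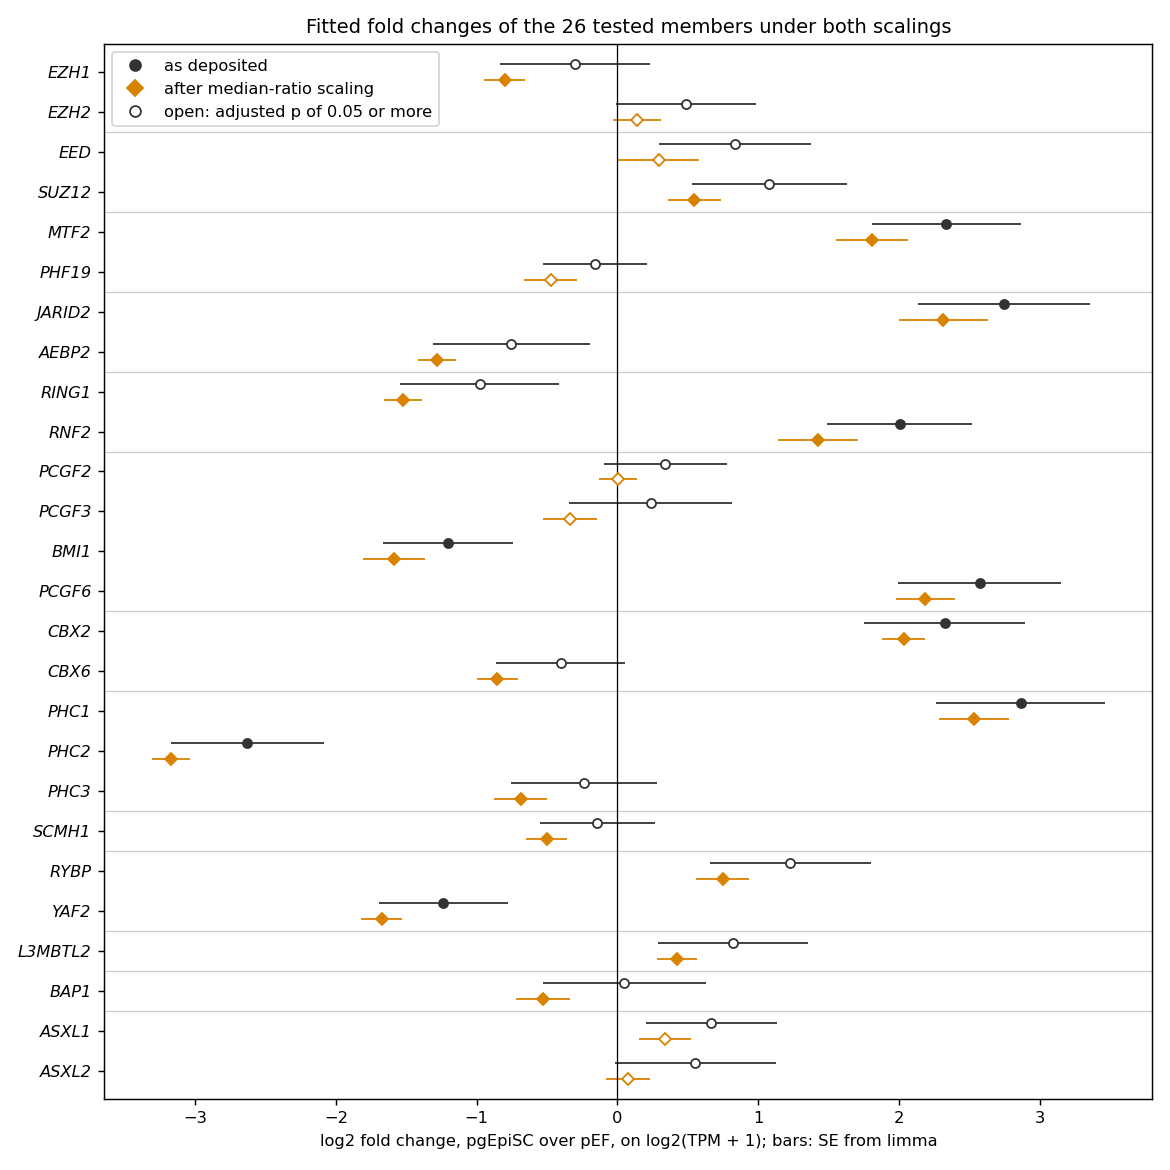
Log2 fold change of pgEpiSC over pEF with its SE from limma for the 26 tested members; circles are values as deposited, diamonds values after median-ratio scaling, and filled symbols have an adjusted p below 0.05. Filled circles number 6 to the right of 0 and 3 to the left, filled diamonds 9 and 10.

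Set out over the 9 positions with more than 1 gene found, 15 of 18 shares did not overlap between the groups, and 8 of 9 positions held such a share. Levels of 49.5% of all tested genes did not overlap either (70.5% after scaling), and shares of 1 position depend on each other, so the count says nothing particular to the members. The gene with the largest mean share was a different one in the 2 groups at 6 positions (EZH, JARID2 and AEBP2, PCGF, CBX, PHC, and RYBP and YAF2) and the same one at 3 (MTF2, RNF2 and ASXL2); JARID2 and AEBP2 are not paralogs. At the EZH position this holds for the means only, since EZH1 held the larger share in pgEpiSC libraries 2 and 3. The largest differences in share were those of PHC1 at 77.0 percentage points, PHC2 at -73.9, CBX2 at 71.9 and JARID2 at 66.9, each several times the SD within either group. The smallest among shares that did not overlap was that of PHF1 at -14.4 points.

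The summed level of a position differed less than its makeup at some positions. After scaling, the PCGF genes summed to 14.2 ± 2.09 TPM in pgEpiSC and 12.3 ± 0.387 TPM in pEF and overlapped, and RYBP with YAF2 summed to 6.23 ± 0.775 and 7.13 ± 0.241 TPM and also overlapped. The PHC genes summed to 10.8 ± 2.47 TPM in pgEpiSC and 17.0 ± 0.633 TPM in pEF, and EZH1 with EZH2 to 2.97 ± 0.148 and 4.49 ± 0.616 TPM, both lower in pgEpiSC in every library. Higher in every pgEpiSC library were the sums of the Polycomb-like genes (16.1 ± 3.53 against 5.47 ± 0.157 TPM), of the RING ligases (28.8 ± 6.78 against 16.0 ± 2.12 TPM), of JARID2 with AEBP2 (12.3 ± 4.45 against 6.91 ± 0.418 TPM) and of the CBX genes (5.55 ± 0.667 against 3.46 ± 0.751 TPM). These sums rest on the scaling and were not tested.

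**Figure D4:**
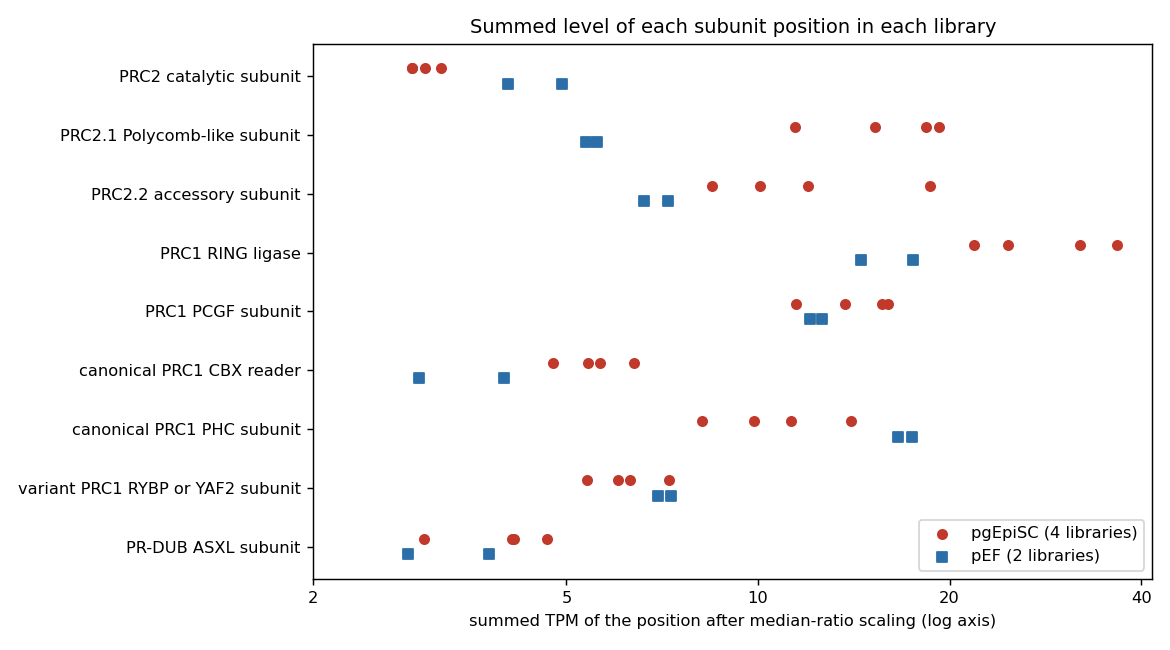
Summed TPM after median-ratio scaling of the genes found for each position, on a log axis; circles are pgEpiSC libraries and squares pEF libraries. The Polycomb-like and RING sums lie higher in pgEpiSC (means of 16.1 and 28.8 TPM) than in pEF (5.47 and 16.0 TPM), the EZH and PHC sums lower, and the PCGF sums overlap.

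Other genes of the pathway, from a list of 42 that held further subunits, H3K27 demethylases and H2A deubiquitinases, were mostly not called. Of the 34 found, 25 were tested; 2 rose and 0 fell by limma (18.0 and 9.43% of all genes were), with 3 higher and 0 lower at an unadjusted p below 0.05. Both that rose were among the 8 PRC1.6 partners found (25%, against 18.0% of all genes). HDAC2, a histone deacetylase shared with other corepressors, stood at 39.3, 108, 71.0 and 57.0 TPM in pgEpiSC, against 11.9 and 18.0 TPM in pEF. TFDP2, a partner of E2F factors, stood at 3.05, 6.15, 4.94 and 3.64 TPM in pgEpiSC, against 0.805 and 0.843 TPM in pEF. Every pgEpiSC library exceeded both pEF libraries for both genes, with folds of 2.06 ± 0.49 (adjusted p = 0.00132) and 1.54 ± 0.55 (adjusted p = 0.0321). The call of HDAC2 was lost without pEF replicate 1, and that of TFDP2 without pgEpiSC replicate 3 or either pEF library. After scaling 6 were higher (HDAC2, TFDP2, AUTS2, WDR5, MGA and L3MBTL3) and 4 lower, among them DCAF7, MAX and FOXK1. Of the 8 PRC1.6 partners found, 4 were called higher (50%, against 27.0% of all genes) and 1, the DNA-binding MGA partner MAX, lower (12.5%, against 30.9% of all genes) after scaling.

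Proliferation markers moved with the same contrast: 11 of 12 found (91.7%) were called higher under both scalings. Of all tested genes, 18.0% were called higher as deposited and 27.0% after scaling. The 12 markers summed to between 216 and 523 TPM in pgEpiSC and to 32.3 and 71.6 TPM in pEF. None of them was listed at 0 in all libraries of a group. Their part in the differences of the members was not tested.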

How the data were processed

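Expression was measured by RNA-seq in 4 pgEpiSC and 2 pEF libraries. The authors deposited 1 TPM table of 20132 genes, a column per library, per the file headers. The submitters' processing notes name STAR 2.6.0c and kallisto 0.44.0. What each did is not given in the sources used here, and neither are build or annotation. TPM keeps no read depth, so no counting intervals are given. IDs were paired with symbols by a gene name table (14062 rows matched), and 2 rows that shared a symbol were summed.

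Genes with at least 1 TPM in at least 2 libraries (10424) were fitted by group on log2(TPM + 1) with limma 3.58.1 under R 4.3.3, using a trended empirical Bayes variance, and adjusted by Benjamini-Hochberg. The fit was tested on simulated data. Shares were compared by exact permutation of libraries. Named were the members called under either scaling, both genes of 2-gene positions and up to 4 called genes per direction of the wider list. Members and lists were chosen with earlier results of these data known. Alternatives were other pseudocounts, filters and scalings, no variance trend, a replicate block and each library left out. Tables used Python 3.11.15 with pandas 2.3.3. Replicates were not stated to be separate cultures beyond the word biological, so p-values measure the spread between these libraries.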

Additional observations from a re-analysis of the deposited data

How the results depend on the processing

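Members called higher numbered 6 as deposited, 3 with no filter and 10 after quantile normalization, and between 0 and 6 with 1 library left out (0 without pEF replicate 1 and 3 without pEF replicate 2). Members called lower numbered 3 as deposited, 0 with only genes averaging 5 TPM or more, 10 after median-ratio scaling, 7 after rescaling to 1000000 and 7 after quantile normalization, 1 without a variance trend, and between 1 and 3 with 1 library left out. After median-ratio scaling with 1 library left out, 5 to 9 were higher and 8 to 10 lower. The labels share replicate numbers 1 and 2, and deviations of same-numbered libraries, on scaled values, correlated at 0.0671 and 0.113. These values cannot decide whether same-numbered libraries share a batch. Scaling removes shifts of a whole library, and the deviations of the 2 pEF libraries mirror each other. The median-ratio factors were lower for number 1 than for number 2 in both groups (0.697 and 2.15 in pgEpiSC, 0.569 and 0.944 in pEF). Only replicate numbers 1 and 2 occur in both groups, so pgEpiSC libraries 3 and 4 do not bear on the fold under a replicate block. It therefore compares fewer libraries than the main fit, and calls it ends or adds cannot be credited to a batch. With a replicate block 7 members were higher and 1 lower, and with the block after scaling 7 and 9. As deposited the block ended the calls of BMI1 (adjusted p = 0.0931) and YAF2 (0.0760) and added RYBP (1.44, 0.0387); after scaling it ended those of SUZ12 (0.53, 0.131), L3MBTL2, BAP1 and SCMH1 and added PHF19 (-0.55, 0.0401). Linked genes called higher numbered 1 with no filter, 6 after scaling, 3 with the block and 0 to 3 with 1 library left out; those lower numbered 4 after scaling and 0 to 1 with 1 library left out. With 1 pEF library left, it is assumed to vary like pgEpiSC. All tested genes shifted as well. Called higher among them were 1874 of 10424 as deposited, 787 of 18957 with no filter and 3676 of 10424 after quantile normalization. Called lower were 983 as deposited and 368 of 4132 with only genes averaging 5 TPM or more. Median-ratio scaling gave 3222 lower, rescaling to 1000000 gave 2924, quantile normalization 2726 and no variance trend 898. Fewer genes were also called with either pEF library left out. The cause of these shifts was not tested.

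Of the shares, that of PCGF2 turned its sign: it differed by -0.83 points, by -1.94 to 0.28 with 1 library left out and by 0.23 within replicate numbers (the replicate block). With 1 library left out the differences ranged from 24.7 to 35.0 points for MTF2, -15.2 to -13.5 for PHF1, -21.6 to -9.49 for PHF19, 33.3 to 38.4 for RNF2, 69.5 to 74.4 for CBX2, -54.1 to -50.4 for CBX6, -75.7 to -72.1 for PHC2 and -55.3 to -42.0 for YAF2.

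Among single members, scaling turned the sign of PCGF3 (-0.34 after median-ratio scaling, also -0.34 with the replicate block, -0.54 after rescaling, -0.0798 after quantile normalization; -0.115 to 0.587 with 1 library left out, and -0.455, -0.399, -0.363, -0.314, -0.304 or -0.250 when scaled too), BAP1 (-0.53, -0.49, -0.76 and -0.28; -0.336 to 0.435, and -0.680, -0.608, -0.516, -0.505, -0.483 or -0.461), PCGF2 (-0.12 after rescaling; -0.154, -0.0306 or up to 0.106 scaled with 1 library left out) and ASXL2 (-0.0503 after rescaling; -0.0782 to 0.152). With 1 library left out the fold also crossed 0 for PHF19 (-0.50 to 0.18), PHC3 (-0.545 to 0.0725), SCMH1 (-0.307 to 0.0231) and, scaled, EZH2 (-0.14 to 0.36). None of these 8 was called as deposited.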

Other observations

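Genes known from mouse and human stem cells as classical Polycomb targets mostly averaged below 1 TPM in both cell types. Of 59 such genes, chosen with earlier results of these data known, 53 were found and 41 (77.4%) averaged below 1 TPM in both groups, as did 49.0% of all genes in the table; a mean of 1 TPM was reached by 3 in pgEpiSC and by 10 in pEF. Of the 11 tested, 1 was called higher and 9 lower in pgEpiSC (18.0 and 9.43% of all tested genes were), but 10 of these 11 reached 1 TPM in libraries of 1 group alone, so the filter favoured their direction. FOXD3, a forkhead factor of the epiblast and neural crest, averaged 3.39 ± 2.84 TPM in pgEpiSC and 0.00865 ± 0.00379 TPM in pEF, a call lost with either pEF library left out. HAND2, a factor of heart and limb development, averaged 0.0268 ± 0.0452 TPM in pgEpiSC and 11.6 ± 0.0675 TPM in pEF. TBX2, a T-box factor, averaged 0.00731 ± 0.00742 TPM in pgEpiSC and 3.88 ± 0.653 TPM in pEF. CCND2, a D-type cyclin, averaged 3.06 ± 3.20 TPM in pgEpiSC and 11.1 ± 5.25 TPM in pEF (-1.77 ± 0.60, adjusted p = 0.0230), a call lost without pgEpiSC replicate 3 or 4 or either pEF library.

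CDKN2A, which encodes cell cycle inhibitors, was named after its values were seen. It stood at 0.0396, 0, 0.0597 and 0.0412 TPM in pgEpiSC, against 3.75 and 2.55 TPM in pEF, a description with no test, since it passed the filter through pEF alone.

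EZH2 is known in mammals to be transcribed with the cell cycle genes of dividing cells. Here 11 of 12 proliferation markers were called higher in pgEpiSC (91.7%, against 18.0% of all tested genes as deposited). TOP2A averaged 48.5 against 4.91 TPM and MCM2 21.5 against 1.64 TPM in pEF. MCM2 lost its call as deposited once pEF replicate 1 was left out. EZH2 averaged 1.97 ± 0.827 TPM in pgEpiSC and 1.13 ± 0.783 TPM in pEF and was not called. EZH2 ranked 16 among the 28 members in pgEpiSC, below SUZ12 and EED at 6 and 7, on rows whose coverage of each gene was not tested.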
